A study of Mus musculus with 16 samples.

Results

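The neuropeptides and interneuron identity genes are 31 genes that mark inhibitory neurons of the mouse hippocampus or encode their peptides, followed here in mice without biglycan and in mice that drank fructose. They comprise 17 neuropeptide precursors and 14 genes of interneuron identity, namely 2 calcium-binding proteins, 3 genes of GABA synthesis and vesicle loading, a nitric oxide synthase, 2 transcription factors and 6 secreted or surface proteins. They were found by exact gene name among the 22572 names of the table. All 31 were found, at 33 loci, and the 2 loci of Crh and of Ndnf were summed.

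Bulk messenger RNA was measured in hippocampus of male C57BL/6 mice, in 16 libraries and 4 groups of 4. The WT water group (WTCtrl) was wild type on regular water, and the WT fructose group (WTFru) was wild type on water with 15% fructose (w/v). The BgnKO water (BgnCtrl) and BgnKO fructose (BgnFru) groups carried a knockout of Bgn, written Bgn0/- in the labels and BgnKO here, on the same drinks. Drinks were given for 6 weeks from 3 months of age. The deleted gene is X-linked and its product, biglycan, is a matrix proteoglycan of the small leucine-rich kind. The labels do not say whether the 4 libraries of a group came from separate mice, so the p-values measure the spread between libraries, which may in part be technical.

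Hippocampal interneurons release GABA onto pyramidal and granule cells and fall into classes that are told apart by the peptides and calcium-binding proteins they make. Somatostatin and NPY mark cells that contact dendrites, parvalbumin marks cells that contact cell bodies and axon initial segments, CCK with the cannabinoid receptor CB1 marks another class of basket cell, and VIP and calretinin mark cells that mostly contact other interneurons. Peptides are cut from precursor proteins, stored in dense-core vesicles and released on strong activity. Several of the genes are not particular to interneurons: Cck, Penk, Pdyn, Npy, Grp and Cnr1 are also transcribed in principal cells, and calretinin in mossy cells of the mouse dentate gyrus.

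Levels are deposited FPKM, in which fragments are counted per kilobase of a transcript and set against the size of the library. Library values are listed from replicate 1 to replicate 4, and folds are on the log2(FPKM + 1) scale, ± SE. Read numbers could not be recovered from them, so the depth of a library is unknown and no counting interval is given. Between 12343 and 12885 names reached 1 FPKM in a library. Bgn, the check of the labels, was at 9.94, 11.7, 17.7 and 24.2 FPKM in the WT water libraries, 5.42, 20.7, 21.2 and 17.2 in WT fructose, 4.46, 7.23, 7.19 and 7.60 in BgnKO water and 5.02, 6.70, 6.73 and 7.11 in BgnKO fructose. The library labelled WT fructose replicate 1 thus lay inside the BgnKO range of 4.46 to 7.60 FPKM, and results that rest on it are given with and without it. These Bgn values are sums of 2 loci on opposite strands. The locus on the strand not annotated for Bgn was at 0.629 to 2.61 FPKM in the replicate 1 libraries and at 1.79 to 11.5 in the others. At the other locus alone, the library labelled WT fructose replicate 1 was at 4.00 FPKM, inside the BgnKO range of 3.11 to 4.93. The 4 libraries numbered replicate 1 stood apart from the others in every group: limma called 6372 of 12648 genes, 50.4%, between them and replicates 2 to 4 (adjusted p under 0.05), with 8 of 29 tested members among them. Reln, Nts and Cnr1 were higher in replicate 1, and Npy, Tac2, Lhx6, Nos1 and Ndnf were lower. Genotype results are therefore also given with a term for replicate 1 and in replicates 2 to 4 alone. In bulk tissue, fewer cells of a type and less RNA per cell cannot be told apart.

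By mean FPKM over the 16 libraries, which is scaled to transcript length, Sst stood first at 445 and Cck second at 408. Npy followed at 99.3, Gad1 at 88.5, Gad2 at 45.7, Calb2 at 44.6, Cnr1 at 42.5, Penk at 34.0, Slc32a1 at 33.8 and Pvalb at 32.9. In this order the ranges of each gene and the next overlapped, except that the lowest Cck library (327 FPKM) was above the highest Npy library (142 FPKM). Kit, Grp, Nos1, Nxph1, Reln, Vip and Dlx1 had means between 10.2 and 24.6 FPKM. Tac2, Erbb4, Lhx6, Nts, Cort, Tac1, Pnoc, Ndnf, Pdyn, Adcyap1, Cartpt and Crh lay between 1.94 and 7.96. Galanin (Gal, mean 0.883 FPKM) and thyrotropin-releasing hormone (Trh, mean 0.939 FPKM) were under the minimum mean of 1 FPKM for a test, so 29 of 31 members were tested.

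The lists that stand for tissue next to the hippocampus bear on several peptides, because Penk, Tac1, Pdyn, Trh, Nts and Cartpt are abundant in striatum, hypothalamus or thalamus. Of the 14 striatal projection neuron markers, all were found and none was at 0 in every library; their summed level was 109 to 176.5 FPKM in WT water, 112 to 125 in WT fructose, 116 to 119.8 in BgnKO water and 113 to 151 in BgnKO fructose. The 12 hypothalamus markers summed to 3.69 to 15.3 FPKM, with Oxt at 0 in 6 libraries, Hcrt at 0 in 5 and Nr5a1 and Sim1 at 0 in 8 each. The 8 thalamus markers summed to 32.5 to 62.6 FPKM, highest in WT fructose replicate 3. Markers of CA1 and CA3 pyramidal cells (428.8 to 635 FPKM) and of dentate granule cells (85.0 to 124 FPKM), the tissue named by the labels, were present in every library. Choroid plexus markers ranged from 232 FPKM in the library labelled WT fructose replicate 1 to 9178 FPKM in BgnKO fructose replicate 4.

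A stretch of promoter shared by several of the peptide genes is shown first, because it is the sequence through which cyclic AMP and activity are known to act on them. The palindrome TGACGTCA, the cyclic AMP response element known from Sst, and its core TGACG were searched on both strands in the 250 bases before each RefSeq gene start (GRCm38.p6). Every TGACGTCA holds TGACG, so the counts overlap. Of the 31 members, 25 had a promoter in the RefSeq table; Pnoc, Ndnf, Grp, Penk, Calb2 and Crh were not matched. A gene name was counted if any of its promoters held the match. TGACGTCA stood in 2 of 25 (8.0%), Sst and Cartpt, and in 1.77% of all 27025 gene names with a promoter. TGACG stood in 11 of 25 (44.0%), namely Adcyap1, Cartpt, Cck, Cort, Gad2, Nos1, Nts, Sst, Tac1, Trh and Vip, and in 19.8% of all these gene names. Stretches are written 5′ to 3′ on the gene's own strand, with the match in capitals; CGTCA is the core read on the other strand. For Sst, Cartpt and Tac1 the stretch lies inside the gene span of GENCODE vM21, whose start is further upstream than that of RefSeq.
Sst, chr16:23890874-23890903, minus strand: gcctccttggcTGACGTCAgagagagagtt
Cartpt, chr13:99900777-99900806, minus strand: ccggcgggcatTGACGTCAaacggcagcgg
Vip, chr10:5639128-5639154, plus strand: gatcactactgTGACGtctttcgggga
Tac1, chr6:7555007-7555033, plus strand: ctctacaggctCGTCAcgcctgagata
Cck, chr9:121495726-121495752, minus strand: ctgctggactgCGTCAgcactgggtaa
In Sst the match ran from 48 to 41 bases before the start, in Cartpt from 112 to 105, in Vip from 79 to 75, in Tac1 from 43 to 39 and in Cck from 47 to 43.

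Of the activity-induced genes, a list of 12, 9 had a promoter in the table, Nr4a3 among them, and all 9 had TGACG. Egr1, Arc and Ier2 were not matched and so were not searched. Over the whole list, searched or not, 11 of 12 were lower in BgnKO averaged over drinks (median of the 12 -0.60). Limma called 8 of the 12 lower, where it called 4.99% of all genes (Egr1, not searched, -1.08 ± 0.14, log2 fold ± SE). The 10 tested members with TGACG had 5 higher and 5 lower folds in that comparison, median 0.01, and the 13 tested members without it had 6 higher and 7 lower, median -0.00. With fructose both sets lay lower, 9 of 10 with the core (median -0.17) and 12 of 13 without it (median -0.17). A match is a run of letters, not a site shown to be bound.

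Without a term for replicate 1 or a block for the replicate number, no member passed the test between BgnKO and WT with all 16 libraries. The nearest were Tac1, higher in BgnKO, and Nos1, lower. Nos1, Tac1 and Calb2 passed in some fits with such a term or block, as given below. On water, BgnKO against WT, limma called 0 of 29 tested members at an adjusted p under 0.05, where 0.387% of all genes were called; 3 members had an unadjusted p under 0.05 (10.3% against 5.33% of all genes), all higher. These were Calb2, Adcyap1 and Cartpt. That number was 1 without WT water replicate 2 (3.45% against 4.6% of all genes) and 5 without WT water replicate 1 (17.2% against 7.55%). It was 7 without BgnKO water replicate 4 (24.1% against 5.63%). In all, 19 members were higher and 10 lower, with a median log2 fold of 0.09 against -0.00 over all genes. On fructose limma also called 0 of 29, where 3.76% of all genes were called. At an unadjusted p under 0.05 there were 4 members (13.8% against 21.3% of all genes), Tac1 higher and Nos1, Crh and Penk lower. That number was 2 (6.9%) without BgnKO fructose replicate 3 or 4, against 18.8% and 14.1% of all genes. On fructose 9 members were higher and 20 lower, with a median of -0.05 against -0.01, and without BgnKO fructose replicate 4 that turned to 17 higher and 12 lower, with a median of 0.03. Averaged over drinks 0 of 29 were called by limma against 4.99% of all genes; 5 had an unadjusted p under 0.05, which were Tac1 and Calb2, higher, and Nos1, Crh and Penk, lower. Of all genes tested, 21.1% had such a p in that comparison, against 17.2% of the members. Without BgnKO fructose replicate 3, 3 members did (10.3% against 19.7% of all genes). Without the library labelled WT fructose replicate 1, 3 members did (10.3% against 21.7%). Over both drinks no member had all 8 BgnKO libraries clear of all 8 WT libraries, where 1.19% of all genes did. No test of whether BgnKO acts differently on the 2 drinks called a member (limma, interaction, 0 of 29 with 0.00791% of all genes called, and 0 at an unadjusted p under 0.05).

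**Figure D1:**
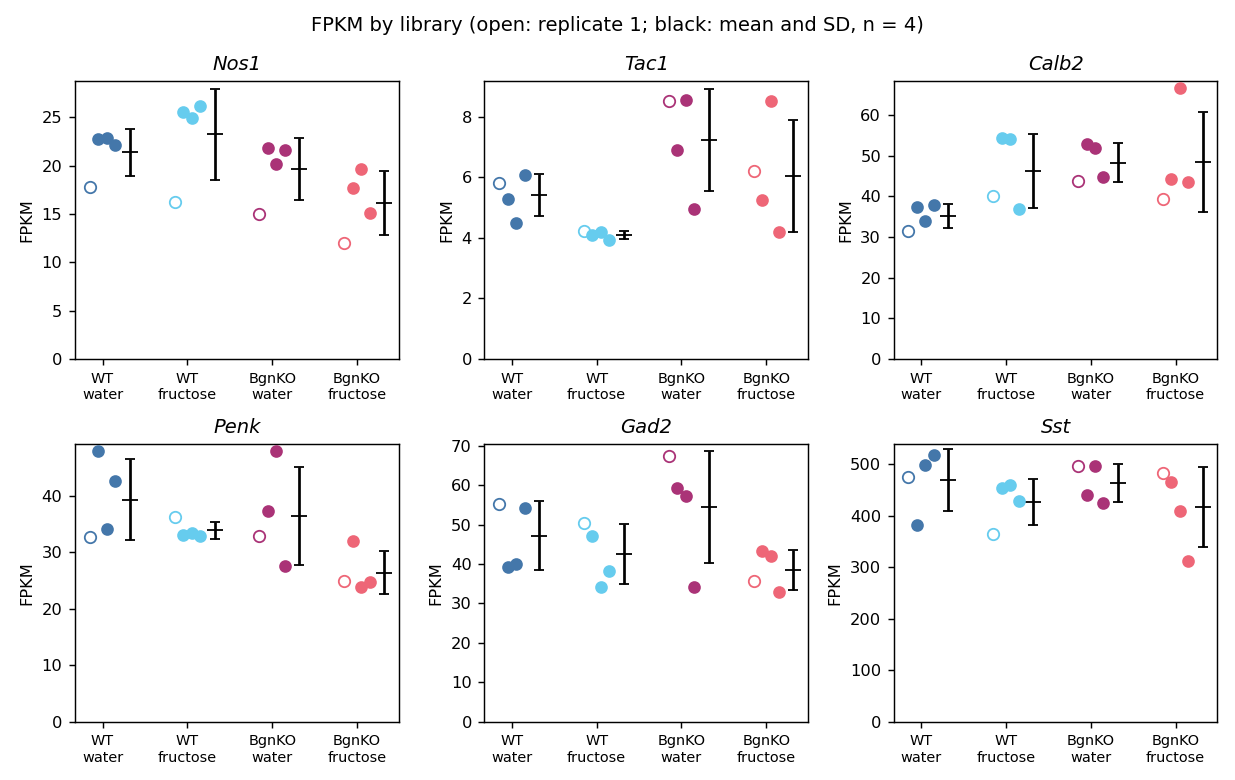
FPKM of Nos1, Tac1, Calb2, Penk, Gad2 and Sst in each of the 16 libraries (points, replicate 1 open) with the mean and SD of each group of 4 in black. Nos1 is lowest in BgnKO fructose (mean 16.1 FPKM) and Tac1 is lowest in WT fructose (mean 4.11 FPKM); the Nos1 points of replicate 1 lie below the others of their group.

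Nos1, neuronal nitric oxide synthase (chr5:117781032-117958840, plus strand, GENCODE vM21), is made by NPY-positive neurogliaform and ivy cells and by projecting interneurons. It was at 17.8, 22.8, 22.8 and 22.2 FPKM in the WT water libraries, 16.2, 25.6, 24.96 and 26.2 in WT fructose, 15.02, 21.8, 20.1 and 21.6 in BgnKO water and 12.02, 17.7, 19.6 and 15.1 in BgnKO fructose. In every group replicate 1 was the lowest library. In replicates 2 to 4 the 6 BgnKO libraries (15.1 to 21.8 FPKM, mean 19.3 ± 2.57 SD) all lay below the 6 WT libraries (22.2 to 26.2 FPKM, mean 24.1 ± 1.69 SD), a separation that 5.81% of all genes showed in either direction. Among the replicate 1 libraries, 2 against 2, the BgnKO values of 12.02 and 15.0 FPKM were below the WT values of 16.2 and 17.8. The value of 16.2 is that of the library labelled WT fructose replicate 1. The share of all genes that separate in these libraries was not computed. Sst, Npy, Tac1, Cort, Crh, Adcyap1, Grp, Pvalb, Lhx6 and Kit separated there too, in either direction. With all 16 libraries and no term for replicate 1, BgnKO was lower by a log2 fold of -0.50 ± 0.17 (SE) on fructose and of -0.31 ± 0.12 averaged over drinks, and neither passed the limma test (adjusted p = 0.103 and 0.140).

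With a term for replicate 1, Nos1 passed on fructose (limma adjusted p = 0.000653, 17.3% of all genes called) and averaged over drinks (adjusted p = 0.000933, 18% called). In replicates 2 to 4 alone the folds were -0.53 (limma adjusted p = 0.00458, 10.9% called) and -0.31 (adjusted p = 0.00657, 12.6% called). Without the library labelled WT fructose replicate 1 they were -0.66 (limma adjusted p = 0.0333, 2.79% called) and -0.39 (adjusted p = 0.0438, 4.62% called). That fit has no replicate 1 library in WT fructose but keeps BgnKO fructose replicate 1, the lowest Nos1 library (12.02 FPKM). Its folds therefore also take in the low Nos1 of the replicate 1 libraries. On water the fold was -0.12 ± 0.17 (limma adjusted p = 1.00) and stayed uncalled in all 28 alternatives (adjusted p 0.541 to 1.00). The Nos1 fold averaged over drinks was -0.25 to -0.39 over the alternatives tried.

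Tac1, the precursor of substance P and neurokinin A (chr6:7554879-7565834, plus strand), was at 5.82, 5.28, 4.50 and 6.10 FPKM in the WT water libraries, 4.23, 4.09, 4.19 and 3.92 in WT fructose, 8.53, 6.90, 8.55 and 4.97 in BgnKO water and 6.22, 5.25, 8.53 and 4.20 in BgnKO fructose. The 4 WT fructose libraries lay close together and below every WT water library, which 1.87% of all genes did in either direction. Of the 8 BgnKO libraries 5 were above the highest WT library, and the share of all genes with such a count was not computed. Averaged over drinks Tac1 was at 6.64 ± 1.76 FPKM in BgnKO (SD, n = 8) and 4.76 ± 0.85 in WT, a log2 fold of 0.38 ± 0.12 (limma adjusted p = 0.0739). It passed with the term for replicate 1 (limma adjusted p = 0.0327, 18% of all genes called). It also passed without BgnKO water replicate 4 or BgnKO fructose replicate 4, fits for which the share of all genes called is not given here. In replicates 2 to 4 alone it did not pass (0.35, limma adjusted p = 0.124, 12.6% of all genes called). The 2 BgnKO libraries with the lowest Tac1 were those same 2 libraries of replicate 4. Striatal projection neurons make Tac1 too, and their markers summed to 116 to 119.8 FPKM in BgnKO water and 109 to 176.5 in WT water; their part in the Tac1 difference was not tested.

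Calb2, calretinin (chr8:110137502-110168210, minus strand), was at 31.6, 37.3, 34.02 and 37.95 FPKM in the WT water libraries, 40.04, 54.3, 54.1 and 36.9 in WT fructose, 43.8, 52.9, 51.9 and 44.7 in BgnKO water and 39.3, 44.2, 66.6 and 43.5 in BgnKO fructose. On water the 4 BgnKO libraries lay above the 4 WT libraries, a separation in either direction that 4.01% of all genes showed, and the log2 fold was 0.44 ± 0.15 (limma adjusted p = 0.512). On fructose the groups overlapped (0.05 ± 0.15, adjusted p = 0.876). WT fructose was above WT water by 0.37 ± 0.15, unadjusted p = 0.0296 (limma adjusted p = 1.00). The WT fructose replicate 3 and BgnKO fructose replicate 3 libraries, both high in Calb2, held the highest summed thalamus markers, 62.6 and 56.5 FPKM, while WT fructose replicate 2, as high in Calb2, held 44.2. Without BgnKO fructose replicate 3 the fold on fructose was -0.11.

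Pvalb, parvalbumin, was the steadiest member: 30.1, 33.5, 39.1 and 31.9 FPKM in the WT water libraries, 29.2, 32.4, 36.1 and 33.9 in WT fructose, 32, 31.6, 33 and 33.9 in BgnKO water and 33.4, 32.9, 35.6 and 27.8 in BgnKO fructose. The largest value was 1.41 times the smallest, and its spread between libraries of a group was wider than in 37.7% of the genes tested. Its log2 fold averaged over drinks was -0.03 ± 0.06, with an interval of -0.16 to 0.10.

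The opioid precursor Penk (proenkephalin, chr4:4133531-4138819, minus strand) was at 32.7, 47.96, 34.1 and 42.7 FPKM in the WT water libraries, 36.2, 33.1, 33.4 and 32.9 in WT fructose, 32.8, 37.3, 47.9 and 27.6 in BgnKO water and 24.95, 32, 23.9 and 24.8 in BgnKO fructose. All 4 BgnKO fructose libraries were below all 4 WT fructose libraries, as in 11% of all genes in either direction, and the log2 fold was -0.36 ± 0.15 (limma adjusted p = 0.181). The 2 highest Penk libraries were WT water replicate 2, which also held the highest sum of striatal markers (176.5 FPKM), and BgnKO water replicate 3, which held the highest sum of habenula markers (32.7 FPKM). For fructose in WT the Penk fold was -0.19, and -0.10 without WT water replicate 2. For fructose in BgnKO it was -0.43, and -0.29 without BgnKO water replicate 3. Averaged over genotypes it was -0.31, and -0.26 and -0.24 without the one or the other library. The part of striatal or habenular tissue in Penk was not tested. Pdyn, prodynorphin, which dentate granule cells also make, was at 5.26, 5.44, 4.08 and 4.58 FPKM in the WT water libraries, 6.63, 5.91, 4.89 and 5.76 in WT fructose, 4.12, 3.44, 3.87 and 6.39 in BgnKO water and 6.51, 4.29, 4.51 and 4.30 in BgnKO fructose. Its groups overlapped in all 4 comparisons, and its log2 fold was -0.17 averaged over drinks for BgnKO and 0.17 for fructose. Pnoc, the precursor of nociceptin, ranged from 3.93 to 7.33 FPKM.

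Sst, the somatostatin precursor (chr16:23889573-23890958, minus strand), was at 477, 382, 499 and 518 FPKM in the WT water libraries, 364, 455, 460.3 and 429.8 in WT fructose, 496, 441, 496 and 425 in BgnKO water and 484, 465, 409 and 312 in BgnKO fructose. The lowest library was BgnKO fructose replicate 4, and the groups overlapped. Its log2 fold was -0.01 on water and -0.05 on fructose for BgnKO against WT. Npy, neuropeptide Y (chr6:49822710-49829507, plus strand), was at 76.8, 106, 142 and 115 FPKM in the WT water libraries, 74.4, 102, 114 and 109 in WT fructose, 82.01, 102, 98.2 and 106 in BgnKO water and 85.2, 105, 108 and 64.2 in BgnKO fructose. Npy was low in the replicate 1 libraries (log2 difference -0.39 ± 0.12, limma adjusted p = 0.0137), and WT water replicate 3 stood highest. Cort, cortistatin, a relative of somatostatin, was at 4.89, 4.53, 9.99 and 8.88 FPKM in the WT water libraries, 3.33, 7.03, 7.82 and 6.50 in WT fructose, 7.11, 4.53, 7.57 and 5.38 in BgnKO water and 5.26, 6.64, 6.45 and 4.58 in BgnKO fructose. Averaged over drinks the log2 fold for BgnKO was -0.15 for Npy and -0.09 for Cort.

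Cck, cholecystokinin, was at 375, 407, 465 and 399 FPKM in the WT water libraries, 458, 401, 468 and 422 in WT fructose, 358, 363, 383 and 392 in BgnKO water and 487, 417, 409 and 327 in BgnKO fructose. It was one of 3 tested members with a higher fold on fructose (0.10, averaged over genotypes). Vip, vasoactive intestinal peptide, was at 14.03, 9.43, 13.8 and 10.04 FPKM in the WT water libraries, 9.35, 11.7, 10.03 and 14.4 in WT fructose, 12.9, 10.3, 11.3 and 13.1 in BgnKO water and 13.4, 13.2, 10.3 and 7.70 in BgnKO fructose. Its groups overlapped throughout and the BgnKO fold averaged over drinks was -0.01 ± 0.12 (SE). Crh, corticotropin-releasing hormone, was at 2.85, 1.46, 2.71 and 1.85 FPKM in the WT water libraries, 2.17, 2.41, 2.03 and 2.17 in WT fructose, 1.96, 1.91, 2.14 and 1.64 in BgnKO water and 0.953, 2.27, 1.58 and 0.940 in BgnKO fructose. The 2 lowest libraries were BgnKO fructose replicates 1 and 4, and on fructose the log2 fold was -0.43 ± 0.16 (limma adjusted p = 0.143), called without BgnKO fructose replicate 2 (adjusted p = 0.0397). Its 2 loci lie on opposite strands, and no source used here gives the strand setting of the counting, so reads from the 2 strands may not be told apart. The locus on the strand not annotated for Crh was at 0 to 0.191 FPKM in the replicate 1 libraries and at 0.0754 to 1.27 in the others.

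Cartpt, the precursor of CART peptides, was at 3.16, 1.53, 2.25 and 3.08 FPKM in the WT water libraries, 3.86, 2.50, 2.28 and 2.18 in WT fructose, 4.73, 3.03, 3.66 and 3.26 in BgnKO water and 1.66, 2.24, 2.12 and 3.71 in BgnKO fructose. Its log2 fold was 0.43 ± 0.19 for BgnKO on water and -0.46 ± 0.19 for fructose in BgnKO (limma adjusted p = 0.912 and 0.347). Adcyap1, which encodes PACAP, was at 5.05 ± 1.18 FPKM in BgnKO water and 3.27 ± 1.29 in WT water (SD, n = 4), a log2 fold of 0.53 ± 0.21 (limma adjusted p = 0.724). Nts, neurotensin, ranged from 3.29 to 11.1 FPKM and Grp, gastrin-releasing peptide, from 12.5 to 30.5. Gal ranged from 0.441 to 1.35 FPKM. Trh was at 4.31 FPKM in BgnKO fructose replicate 3 and at 0.132 to 1.42 in the other 15 libraries, and that library also held the highest Calb2 and the highest Tcf7l2, a thalamic marker, at 7.11 FPKM.

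Tac2, the neurokinin B precursor (chr10:127724478-127731768, plus strand), was at 5.51, 7.80, 7.58 and 7.36 FPKM in the WT water libraries, 3.26, 7.39, 8.16 and 10.2 in WT fructose, 4.44, 6.80, 29.3 and 5.83 in BgnKO water and 4.11, 8.05, 6.32 and 5.17 in BgnKO fructose. One library, BgnKO water replicate 3, stood far above the rest. The same library held the highest level of every one of 7 genes of the medial habenula, a list chosen after the values were seen: Gpr151 was at 5.98 FPKM there and at 0.177 to 0.598 elsewhere, Chrnb4 at 3.08 against at most 0.635, Chrna3 at 4.28 against at most 1.56 and Pou4f1 at 1.49 against at most 0.499. Their summed level was 32.7 FPKM in that library and 4.67 to 8.16 in the other 15. Tac2 is among the most abundant peptides of the medial habenula, a small nucleus beside the hippocampus. The log2 fold for BgnKO on water was 0.27 with this library and -0.28 without it, and for fructose in BgnKO -0.52 with it and 0.03 without it; none passed the limma test (adjusted p 0.617 to 1.00).

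**Figure D2:**
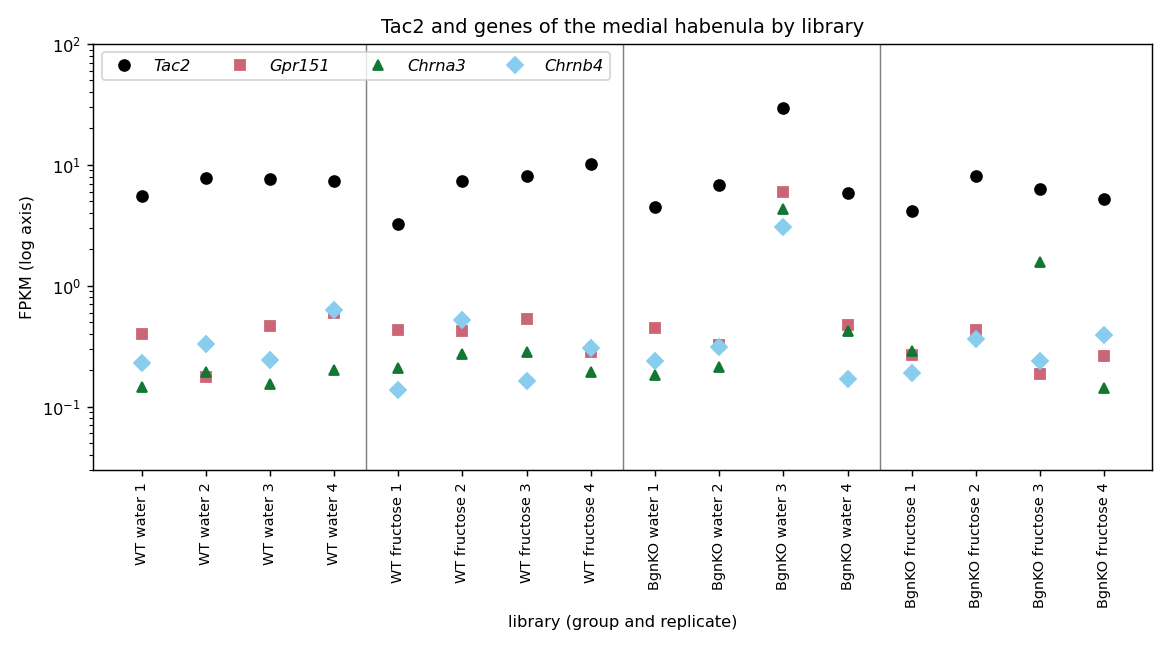
FPKM (log axis) of Tac2 and of the habenula genes Gpr151, Chrna3 and Chrnb4 in each of the 16 libraries, with lines between the 4 groups. BgnKO water replicate 3 holds the highest value of all 4 genes, 29.3 FPKM for Tac2 and 5.98 FPKM for Gpr151.

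The genes shared by nearly all interneurons, those for making GABA and loading it into vesicles, did not pass a test for either factor. Gad1, glutamate decarboxylase 67, was at 95.7, 78.6, 90.95 and 99.7 FPKM in the WT water libraries, 89.3, 88.1, 78.6 and 82.8 in WT fructose, 109, 104, 99.5 and 78.3 in BgnKO water and 80.8, 89.4, 89.3 and 62.1 in BgnKO fructose. Gad2, glutamate decarboxylase 65, was at 55.3, 39.2, 40.1 and 54.3 FPKM in the WT water libraries, 50.4, 47.2, 34.2 and 38.2 in WT fructose, 67.3, 59.3, 57.3 and 34.3 in BgnKO water and 35.7, 43.3, 42.04 and 32.8 in BgnKO fructose. Slc32a1, the vesicular GABA transporter, was at 37.2, 29.1, 29.2 and 43.2 FPKM in the WT water libraries, 32.8, 33.2, 29.8 and 28.01 in WT fructose, 45.01, 38.9, 38.2 and 27.4 in BgnKO water and 31.9, 33.1, 33.9 and 29.3 in BgnKO fructose. In all 3 genes BgnKO water replicates 1 to 3 were among the 4 highest libraries, and BgnKO water replicate 4 was among the 3 lowest. For BgnKO averaged over drinks the log2 folds were 0.00, 0.02 and 0.08, with intervals of -0.18 to 0.19, -0.26 to 0.31 and -0.13 to 0.29.

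Dlx1, a homeobox factor of interneurons from the ganglionic eminences, was at 12.2, 10.9, 8.53 and 11.8 FPKM in the WT water libraries, 11.5, 11.7, 8.99 and 8.22 in WT fructose, 13.3, 12.6, 12.4 and 8.73 in BgnKO water and 7.66, 10.4, 6.09 and 8.85 in BgnKO fructose. In BgnKO fructose 3 of the 4 libraries lay at 8.85 FPKM or below, as did 1 library in each of the other groups, so the groups overlapped. Lhx6, which marks interneurons of the medial ganglionic eminence, had group means of 6.30 to 7.35 FPKM and its 2 lowest libraries were WT fructose replicate 1 (4.40 FPKM) and WT water replicate 1 (5.14 FPKM).

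Erbb4, the neuregulin receptor of interneurons (chr1:68032186-69108059, minus strand), was at 9.37, 7.20, 8.05 and 9.10 FPKM in the WT water libraries, 5.89, 7.36, 5.17 and 7.06 in WT fructose, 10.4, 9.26, 9.25 and 6.96 in BgnKO water and 6.40, 8.33, 6.48 and 5.30 in BgnKO fructose. In each genotype its fructose libraries overlapped its water libraries. Among the secreted proteins, Reln, reelin, made by Cajal-Retzius and neurogliaform cells, was at 21.1, 9.51, 12.3 and 10.0 FPKM in the WT water libraries, 14.1, 10.3, 8.91 and 11.3 in WT fructose, 17.3, 13.6, 12.98 and 13.5 in BgnKO water and 15.9, 15.1, 14.5 and 9.53 in BgnKO fructose. Reln was higher in the replicate 1 libraries (log2 difference 0.50 ± 0.11, limma adjusted p = 0.00204). Ndnf, a marker of neurogliaform cells, was lower in them (-0.64 ± 0.10, adjusted p = 6.83e-05), and this came from its second locus, on the strand that the annotation does not give for it, which was at 0 to 0.154 FPKM in the 4 replicate 1 libraries and at 1.69 to 3.77 in the other 12. Kit ranged from 18.6 to 28.6 FPKM, Cnr1, the cannabinoid receptor CB1, from 27.1 to 56.0, and Nxph1, neurexophilin 1, from 9.31 to 19.1.

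With fructose the members lay lower more often than genes in general, though none passed the test. Averaged over genotypes 26 of 29 were lower and 3 higher (Cck, Calb2 and Pdyn), with a median log2 fold of -0.15 against 0.01 over all genes, of which 45.8% were lower. Limma called 0 members where 0.00791% of all genes were called. At an unadjusted p under 0.05 there were 8 members (27.6%), all lower, against 10.8% of all genes. They were Erbb4 (-0.37 ± 0.10, limma adjusted p = 0.405), Penk (-0.31), Nxph1 (-0.27), Dlx1 (-0.28), Tac1 (-0.28), Gad2 (-0.30), Gad1 (-0.19) and Nts (-0.39). Leaving out 1 library gave 24 to 26 lower members and 3 to 11 at an unadjusted p under 0.05: 3 without WT fructose replicate 4 or BgnKO water replicate 1, 4 without BgnKO water replicate 3, WT water replicate 1 or WT water replicate 4, and 5 without WT fructose replicate 3, BgnKO water replicate 2 or BgnKO fructose replicate 4. Over these fits 6.4 to 15.1% of all genes had such a p. In replicates 2 to 4 alone 26 of 29 were lower, with a median of -0.12 and 2 at an unadjusted p under 0.05 (6.9% against 13.1% of all genes). The members are transcribed in overlapping sets of cells and so are not independent of each other. Other lists lay lower in the same comparison: 19 of 22 other interneuron genes (median -0.06), 16 of 20 genes for peptide receptors and a binding protein (median -0.06) and 9 of 11 striatal projection neuron markers (median -0.17, 36.4% at an unadjusted p under 0.05). The part of the striatal markers in the values of the members was not tested.

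**Figure D3:**
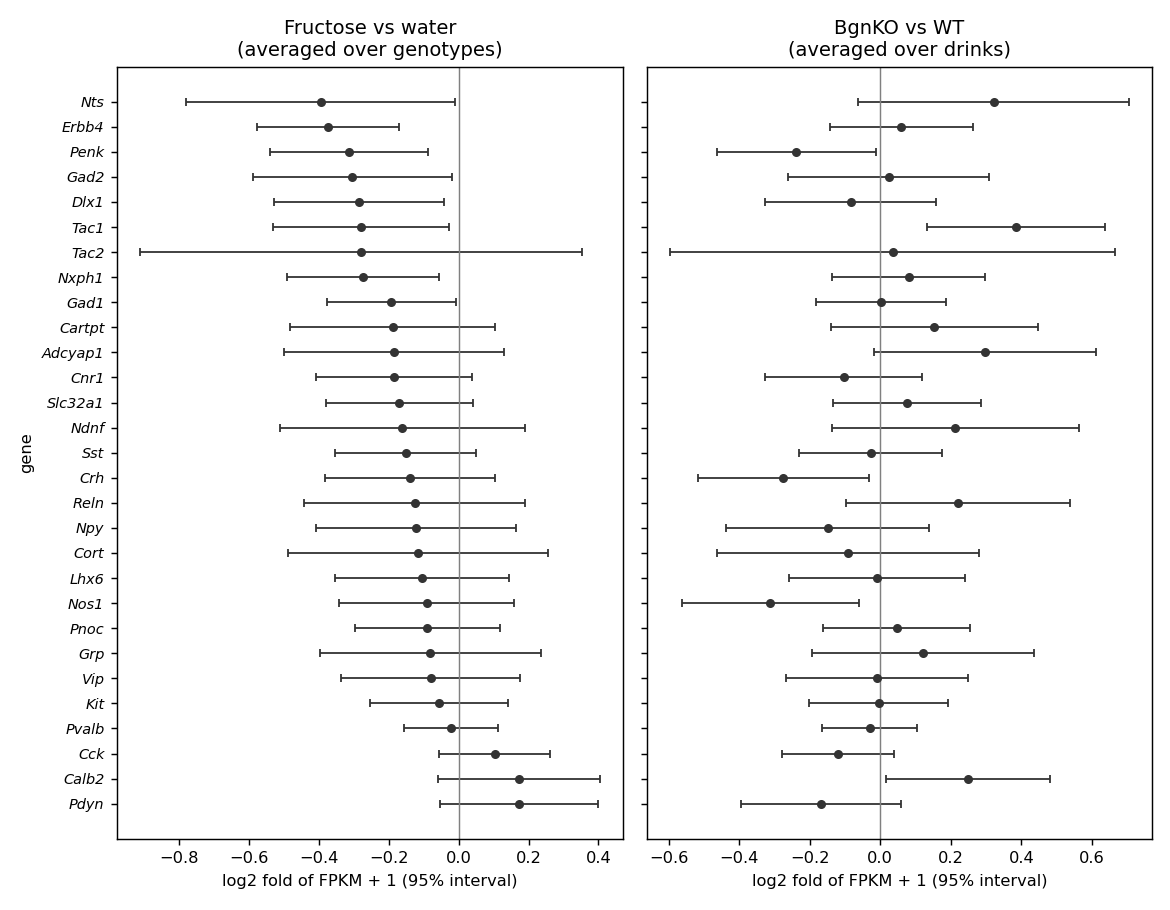
Log2 fold of FPKM + 1 for each of the 29 tested members, for fructose against water averaged over genotypes (left) and BgnKO against WT averaged over drinks (right), with 95% intervals of the limma fit. On the left 26 of the 29 points lie below 0, and on the right 14 do.

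In BgnKO the fructose libraries were lower in 27 of 29 members, median -0.21 against 0.01 over all genes. Limma called 0 members and 0% of all genes, and 7 members had an unadjusted p under 0.05 (24.1% against 12.9% of all genes): Dlx1 (-0.47), Penk (-0.43), Erbb4 (-0.39), Nxph1 (-0.41), Gad2 (-0.46), Cartpt (-0.46) and Gad1 (-0.28). No member's BgnKO fructose libraries were clear of its BgnKO water libraries, where 3.99% of all genes were. Part of the direction came with 1 library. In BgnKO fructose replicate 4, 27 of 29 members were below their mean over the 16 libraries, with a median deviation of -0.37 on the log2 scale against -0.04 over all genes, and 10 members had their lowest value there. Without it 19 of 29 members were lower, with a median of -0.16, and 5 had an unadjusted p under 0.05, 1 of them higher. That was 17.2% of the members against 6.51% of all genes. Averaged over genotypes 24 of 29 were lower without it, with a median of -0.09. Without BgnKO water replicate 3, 24 of 29 were lower in BgnKO, with 4 at an unadjusted p under 0.05 (13.8% against 8.52% of all genes).

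BgnKO fructose replicate 4 also held the lowest sum of CA1 and CA3 pyramidal cell markers (428.8 FPKM against 519 to 635 in the other 15). It held the highest sums of astrocyte markers (2067 FPKM against 1291 to 1978) and of choroid plexus markers (9178 FPKM against 232 to 6279). Ppp1r1b, a striatal and choroid plexus gene, was highest there at 83.0 FPKM. The striatal markers Pde10a (7.51 FPKM), Scn4b (3.77) and Rarb (1.59) were lowest there. The part of these in the lower members was not tested. At the other end, BgnKO water replicates 1 to 3 had 20, 22 and 25 of 29 members above their means. Without BgnKO water replicate 4, which had 12 above, the median fold for fructose in BgnKO was -0.33. At an unadjusted p under 0.05 there were then 14 members (48.3% against 18.4% of all genes), 13 of them lower.

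**Figure D4:**
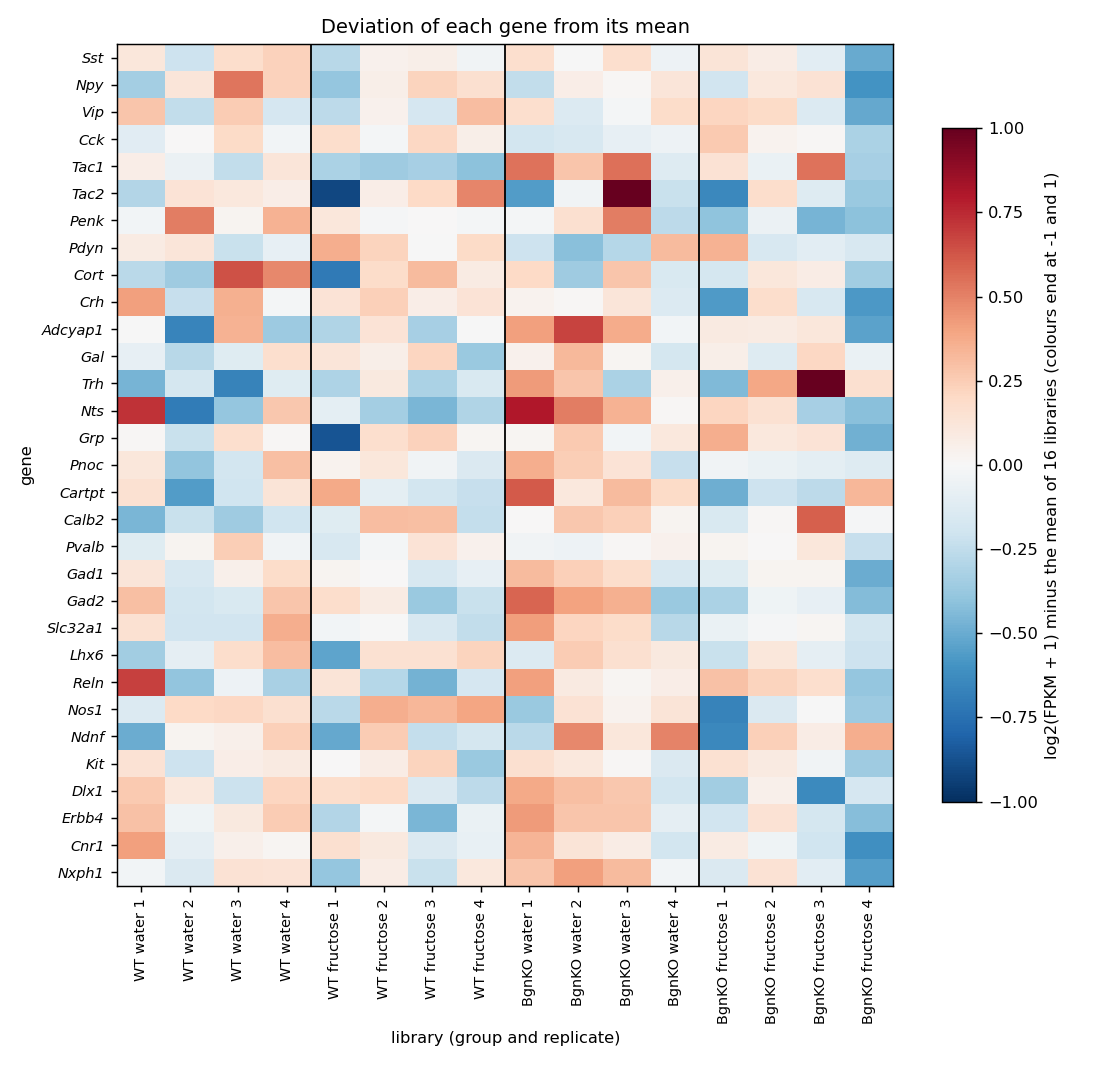
Deviation of log2(FPKM + 1) of each of the 31 genes (rows) from its mean over the 16 libraries (columns, in the 4 groups), with colours ending at -1 and 1. BgnKO fructose replicate 4 is below the mean in 27 of the 29 tested genes, and BgnKO water replicate 3 is above it in 25.

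In wild-type mice 21 of 29 members were lower with fructose, median -0.10 against 0.01 over all genes. Limma called 0 members, where 0.00791% of all genes were called, and 2 had an unadjusted p under 0.05 (6.9% against 2.08% of all genes), Erbb4 lower (-0.36 ± 0.13) and Calb2 higher; that number was 0 when WT water replicate 1 was left out, 0 when WT fructose replicate 3 was, and 1 when WT fructose replicate 2 was. Without the library labelled WT fructose replicate 1, 15 were lower and 14 higher (median -0.01). Without WT water replicate 3, 17 were lower (median -0.03), as were 17 in replicates 2 to 4 alone (median -0.03). The interaction of genotype and drink was below 0 in 23 of 29 members (median -0.18 against -0.01 over all genes) and called none. It was below 0 in 18 of 29 without BgnKO fructose replicate 4 (median -0.06) and in 17 of 29 without WT water replicate 2 (median -0.11).

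Fructose against water averaged over genotypes also went with small differences in glial markers, none of them called: all 9 astrocyte markers were higher (median 0.10), all 8 oligodendrocyte markers were higher (median 0.22; summed level 1865 to 2378 FPKM in BgnKO water and 2230 to 3492 in BgnKO fructose) and all 7 microglia markers were higher (median 0.16). In BgnKO against WT on fructose all 9 astrocyte markers were higher, 3 of them called (Gfap 0.58, Aqp4 0.54 and Gja1 0.42), and the astrocyte sum was 1509 to 2067 FPKM against 1357 to 1464. In the same comparison 2 of 12 pyramidal cell markers, Wfs1 (-0.74) and Iyd (-0.81), were called lower, and limma called 3.76% of all genes. The part of these shifts in the values of the members was not tested.

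The spread of the members between libraries of a group was wide. Tac2 had a within-group SD above that of 99.1% of tested genes on the log2 scale, Nts 96.8%, Cort 96.5%, Ndnf 95.7%, Reln 93.9%, Grp 93.9% and Adcyap1 93.8%. Gad2 stood at 91.6%, above Gad1 at 66.3%. Only Pvalb (37.7%) and Cck (49.7%) of the 29 were steadier than the middle gene. The SD takes in the Tac2 value of 29.3 FPKM in BgnKO water replicate 3. It also takes in the shift of replicate 1, in log2 -0.64 for Ndnf, 0.50 for Reln and 0.55 for Nts. The ranking takes no account of the level of a gene.

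The receptors and the machinery around the peptides followed the same lists of tests. Of 28 genes for neuropeptide receptors and a binding protein, 20 were tested. One, Adcyap1r1, the PACAP receptor PAC1, which astrocytes also make, was called higher in BgnKO on fructose, at 42.6 ± 2.72 FPKM against 34.0 ± 1.31 (SD, n = 4; log2 fold 0.31, limma adjusted p = 0.0409), and averaged over drinks (0.23, adjusted p = 0.0286). The first call held in 17 of 28 alternatives and the second in 19 of 27. Among the fits that lost the first were those without any 1 WT fructose library (0.34, limma adjusted p = 0.0501, without replicate 1). It was also lost without WT water replicate 3 or 4, BgnKO water replicate 2, or BgnKO fructose replicate 1, 3 or 4 (limma adjusted p up to 0.108). This list of losses of the first call is not complete. The second was lost without BgnKO fructose replicate 3, BgnKO water replicate 1 or 4, WT fructose replicate 2, 3 or 4, or WT water replicate 2 or 3 (adjusted p up to 0.0611). Of all genes, limma called 3.76% for BgnKO on fructose and 4.99% averaged over drinks. It called 0 of the 20 for BgnKO on water, with 1 at an unadjusted p under 0.05 (5% against 5.33% of all genes). For fructose averaged over genotypes it called 0, with 2 at such a p (10% against 10.8%). Over all genotype comparisons the other 19 were not called, among them Sstr4, a somatostatin receptor, at -0.36 on fructose (limma adjusted p = 0.0734).

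Of 15 genes for peptide processing and dense-core vesicle cargo limma called 0 in every comparison. For BgnKO averaged over drinks 4 had an unadjusted p under 0.05 (26.7% against 21.1% of all genes). For fructose averaged over genotypes 4 did (26.7% against 10.8%). The smallest p belonged to Cpe, carboxypeptidase E, which trims peptide ends, at 1619 ± 139 FPKM in BgnKO fructose and 1307 ± 119 in WT fructose (0.31, limma adjusted p = 0.0778), and to Cadps2, a dense-core vesicle release factor, at -0.45 for fructose in BgnKO (adjusted p = 0.318). Of 7 genes for GABA uptake, breakdown and the GABA-B receptor limma called 0 in every comparison. At an unadjusted p under 0.05 there were 3 for BgnKO averaged over drinks (42.9% against 21.1% of all genes). Aldh5a1, which ends GABA breakdown, was at 0.12 there (limma adjusted p = 0.0827) and Slc6a11, the GABA transporter GAT-3 of astrocytes, at 0.48 for BgnKO on fructose (adjusted p = 0.0910).

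Of 25 other interneuron genes, 22 were tested and 1 was called: Npas3, a transcription factor of interneurons and astrocytes, was at 3.13 ± 0.28 FPKM in WT water, 2.93 ± 0.31 in WT fructose, 4.23 ± 0.48 in BgnKO water and 4.23 ± 0.32 in BgnKO fructose (SD, n = 4). Its log2 fold for BgnKO was 0.42 on fructose (limma adjusted p = 0.0134, 3.76% of all genes called) and 0.38 averaged over drinks (adjusted p = 0.00171, 4.99% called). The second call held in all 26 alternatives tried and the first in 26 of 27, all but the fit of the 2 groups alone. The other 21 were called in no comparison. Dlx5, a relative of Dlx1, had the next smallest p, with 4.00 ± 0.35 FPKM in BgnKO fructose against 5.77 ± 0.73 in WT fructose (-0.43, limma adjusted p = 0.0605).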

How the data were processed

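Poly(A)-selected messenger RNA from mouse hippocampus was sequenced in 16 libraries, per the labels' protocols. The values are FPKM per locus that the authors deposited; per the submitters' processing notes the tools were TopHat, Bowtie, Cufflinks and Cuffdiff with mm10, and versions, strand setting and scaling are not given in the sources used here. FPKM holds no depth, so the precision rests on the spread between libraries. Loci of 1 name were summed. Names with a mean of at least 1 FPKM (12648) were fitted as log2(FPKM + 1) with limma 3.58.1 in R 4.3.3 (4 group means, mean-variance trend, tested on simulated data), with Benjamini-Hochberg adjustment in each of 7 comparisons and a threshold of 0.05. Folds on this scale understate changes of low genes. Positions came from GENCODE vM21 and promoters from RefSeq, both on GRCm38.

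Alternatives were other pseudocounts, filters, scalings, locus choice, samples in the fit, no trend, a term for replicate 1, replicates 2 to 4, the replicate number as a block, and each library left out. The replicate numbers come from the titles. For fructose against water same-number libraries deviated together in every pair (correlations 0.118 to 0.699 in WT and 0.197 to 0.612 in BgnKO), highest in replicate 1; for BgnKO against WT the correlations were -0.04 to 0.75.

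The members and lists were chosen with earlier results of these data known. Values in every library are given for 19 members: 13 fixed by name and the member of smallest unadjusted p in each role. Of each pathway list up to 4 called members are named, otherwise the 2 of smallest p, and of marker lists mainly the sums. Of the 189 list entries, 5 were found only in names that join 2 genes.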

Additional observations from a re-analysis of the deposited data

Results flagged for a closer look

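In 9 of 124 groups of 4 libraries (31 genes, 4 groups) 1 library stood outside its group by Dixon's criterion, which compares the gap to its neighbour with the group's range; chance gives about 1 in 20 groups. Tac2 was at 29.3 FPKM in BgnKO water replicate 3 and at 4.44 to 6.80 in the other 3. Penk was at 36.2 FPKM in the library labelled WT fructose replicate 1 against 32.9 to 33.4, and at 32 in BgnKO fructose replicate 2 against 23.9 to 25.0. Pdyn was at 6.51 FPKM in BgnKO fructose replicate 1 against 4.29 to 4.51. Adcyap1 was at 2.22 FPKM in BgnKO fructose replicate 4 against 3.93 to 4.03. Lhx6 was at 4.40 FPKM in the library labelled WT fructose replicate 1 against 7.65 to 8.10. Reln was at 17.3 FPKM in BgnKO water replicate 1 against 12.98 to 13.6. Nos1 was at 17.8 FPKM in WT water replicate 1 against 22.2 to 22.8, and at 16.2 in the library labelled WT fructose replicate 1 against 25.0 to 26.2. Of these 9 values 6 were in libraries numbered replicate 1, 3 of them in the library labelled WT fructose replicate 1. No member differed between genotypes in its response to fructose by the test of the interaction.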

How the results depend on the processing

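The number of members called was 0 for BgnKO on water, for fructose in WT, in BgnKO and averaged, and for the interaction, under every alternative run. For BgnKO on fructose 1 member, Nos1, was called in 3 fits (replicate number as a block, a term for replicate 1, replicates 2 to 4 alone), and leaving out 1 library gave 0 to 1 calls (Nos1 without the library labelled WT fructose replicate 1, Crh without BgnKO fructose replicate 2). Averaged over drinks the block gave 3 calls (Calb2, Nos1 and Tac1), the term for replicate 1 gave 2 (Nos1 and Tac1), replicates 2 to 4 gave 1 (Nos1), and leaving out 1 library gave 0 to 1 (Nos1 without the library labelled WT fructose replicate 1, Tac1 without BgnKO water replicate 4 or BgnKO fructose replicate 4). The block raised the share of all genes called from 4.99 to 19.8% there, and it changed no other call of a member. Whether the numbers pair libraries across genotypes or drinks is not shown. Directions turned only when 1 library was left out: Pvalb averaged over drinks ranged from -0.057 to 0.0062 (0.0062 without WT water replicate 3, 0.0052 without BgnKO fructose replicate 4), Tac2 for BgnKO on water from -0.28 to 0.55 and for fructose in BgnKO from -0.80 to 0.0307 (-0.28 and 0.0307 without BgnKO water replicate 3), and Calb2 for BgnKO on fructose from -0.11 to 0.14 (-0.01 without the library labelled WT fructose replicate 1, -0.05 without WT fructose replicate 4, -0.11 without BgnKO fructose replicate 3). Of all fold values for named genes under the alternatives, 1214 kept their direction and their side of the threshold, 76 no longer passed it and 14 passed it anew. The 7 that turned are those of Pvalb, Tac2 and Calb2 just given. The cause of these shifts was not tested. Median fold over all genes moved by less than 0.1 under either scaling. Depth is unknown, so members near 1 FPKM carry an error that is not known.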
